A study of Danio rerio with 6 samples.

Results

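Cytochrome P450 genes encode haem enzymes that insert oxygen into drugs, pollutants, steroids, bile acid precursors, fatty acids and vitamins. Vertebrates hold them in numbered CYP families. Enzymes of families 1 to 3 mainly oxidise foreign compounds, members of family 4 oxidise fatty acids, and higher numbered families act on sterols, steroid hormones, vitamin D and retinoic acid. Liver is the main site of drug and bile acid oxidation, and teleost fish carry large sets of CYP2 genes that have no single mammalian counterpart. Microsomal P450 enzymes receive electrons from cytochrome P450 reductase, and mitochondrial ones receive them from ferredoxin.

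The genes described here were the rows of a liver count table whose Ensembl symbol begins with cyp and a digit, in any case. Of 86 such rows 7 were left out (cyp51, the cyp46a1 copies and CYP7A1), which gave 79 P450 genes of 32520 rows, in 15 CYP families. The libraries were poly-A RNA-seq of liver from wild-type zebrafish of the AB laboratory strain. The cryopreserved sperm group held 3 libraries of fish sired with cryopreserved sperm (cryo replicates 1 to 3) and the fresh sperm group, the control, 3 libraries of fish sired with fresh sperm (fresh replicates 1 to 3). The series title frames the comparison as one of long-term effects on offspring. Sex, age and the number of fish behind a library are absent from the labels. The p-values therefore speak of the spread among these 6 libraries, part of which may be technical. The labels assign fresh sperm to the titles beginning with F and cryopreservation to those beginning with C. Those letters could also abbreviate frozen and control, and a crossed labelling would turn every direction round.

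Library totals ran from 8277183 to 16146121 counts in the cryopreserved sperm group and from 16885619 to 17606733 in the fresh sperm group. All 11 matched hepatocyte markers, of 12 listed, were detected, at 13.7% to 24.9% of counts in cryo libraries and 16.5% to 19.0% in fresh libraries. These shares hide opposite directions. The row tfa had 127072, 94540 and 78269 CPM in cryo libraries against 41418, 26277 and 22260 CPM in fresh libraries. CP was also higher in every cryo library, while apoa2, apoa1b, FGB, fga, FGG and TTR were lower in every cryo library. The remaining markers overlapped, and edgeR called 0 of the 11 higher and 0 lower. Some libraries stood apart in RNA that hepatocytes or other cells make. Vitellogenins, the egg yolk precursors, took 1.5e-04%, 17.4% and 12.4% of counts in cryo replicates 1, 2 and 3, and 6.0e-04% or less in each fresh library. The 20 matched exocrine pancreas genes summed to 3997, 1498 and 5083 CPM in cryo libraries against 822, 766 and 465 CPM in fresh libraries. Of the 17 tested, edgeR called 9 higher and 0 lower (1.02% and 0.963% of all tested genes). PLA2G1B went the other way, at 67.9, 45.0 and 83.4 CPM in cryo libraries against 96.7, 98.1 and 110 CPM in fresh libraries. The 15 macrophage genes summed to 2095, 2191 and 1525 CPM in cryo libraries against 1698, 464 and 573 CPM in fresh libraries. Most of that sum was 1 MFAP4 row (ENSDARG00000090557), at 1800, 1896 and 1223 CPM against 1398, 191 and 259 CPM. Another member, cd68, was lower in every cryo library, at 145, 152 and 154 CPM against 176, 180 and 170 CPM, and LGMN overlapped. Of the 11 tested macrophage genes 2 were called higher and 0 lower by edgeR (1.02% and 0.963% of all tested genes). The 6 bile duct genes summed to 1184, 1024 and 817 CPM in cryo libraries against 720, 559 and 564 CPM in fresh libraries. Among them krt8 was higher in every cryo library, and the others overlapped or had no count. Islet genes summed to 156, 0.142 and 15.4 CPM in cryo replicates 1, 2 and 3, and to 0.235, 7.62 and 0.778 CPM in fresh replicates 1, 2 and 3. Of the 4 tested bile duct and 3 tested islet genes edgeR called 0. In whole tissue, fewer cells of a type and less RNA per cell cannot be told apart.

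Of the 79 P450 genes, 70 had at least 1 count and 53 passed the low-count filter and were tested. The 9 genes without a count in any library were CYP1B1, cyp2aa4, cyp2k17, CYP11A1 (ENSDARG00000092696), CYP19A1, cyp21a2, CYP26A1, CYP26C1 and CYP27C1. A count of 0 allowed a level of up to 0.426 CPM in the shallowest library, cryo replicate 2, and up to 0.163 CPM in the deepest, fresh replicate 2, by counting error alone. A further 17 genes had counts but were too low, or present in too few libraries, to be tested. Of these, 16 had at most 96 counts in any library, and the other was cyp2k6. CPM here give a gene's count scaled to a common, TMM-normalised library size. They are not divided by transcript length, so levels are compared between libraries and not between genes.

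Together the 79 genes took 5514, 3679 and 5091 CPM in cryo replicates 1, 2 and 3, against 5245, 6236.5 and 6924 CPM in fresh replicates 1, 2 and 3. Cryo replicate 1 lay within the fresh range and cryo replicate 2 was lowest. The group means were 4762 ± 961 CPM in the cryopreserved sperm group and 6135 ± 844 CPM in the fresh sperm group (SD, n = 3 each).

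**Figure D1:**
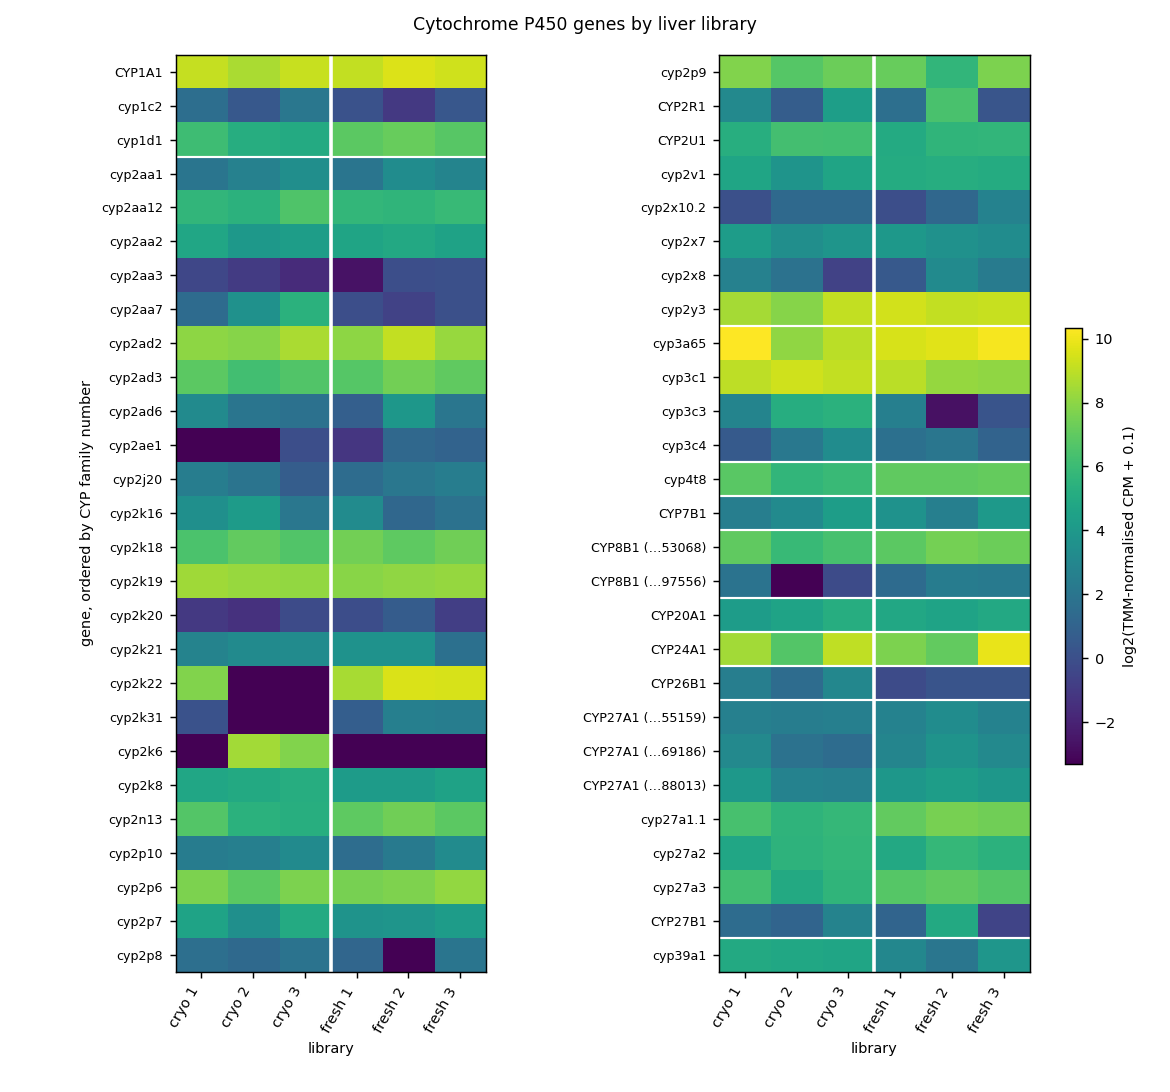
Colour gives log2(TMM-normalised CPM + 0.1) for the 53 tested P450 genes and cyp2k6, in rows ordered by CYP family number, with cryo libraries left and fresh libraries right of the white line in each panel. Most rows keep nearly 1 colour across all 6 libraries, while cyp2k22 and cyp2k6 are dark (0 counts) in some libraries and bright in others. The low rows cyp2k31, cyp2ae1, cyp2p8 and CYP8B1 (ENSDARG00000097556) also hold 0 counts in some libraries. The digits after symbols shared by several genes are the end of the Ensembl identifier.

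By edgeR's quasi-likelihood test 1 of the 53 tested P450 genes passed an adjusted p of 0.05, the retinoic acid hydroxylase gene CYP26B1, which was higher in the cryopreserved sperm group. Over all 12674 tested genes 1.98% passed, so the P450 share of 1.89% was near the background (1.02% higher and 0.963% lower over all genes). None was called lower by edgeR, and DESeq2 called 3 lower. An unadjusted edgeR p under 0.05 was reached by 13 of 53 (24.5%, 7 lower and 6 higher), against 18.5% of all tested genes. DESeq2 called 7 of 61 P450 genes in all (11.5%, against 7.66% of all genes), and edgeR without the low-count filter called 8 of 70 (11.4%, against 3.23%). Without cryo replicate 1, where every cryo library left holds vitellogenin RNA, 11 of 56 passed (19.6%, against 6.6%). With cryo replicates 2 and 3 left out together, which keeps cryo replicate 1 alone, the median log2 change of P450 genes was -0.18. Of the 53 genes 17 (32.1%) had no overlap between the 3 values of each group, 7 with higher and 10 with lower cryo values. Over all tested genes 24.6% had none (11.2% higher, 13.4% lower).

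Log2 changes of the tested P450 genes (cryopreserved over fresh) ran from -3.41 to 4.61, and 36 of 53 (67.9%) were negative, against 49.9% of all tested genes. Their median was -0.37, beside a median of 0.0015 for all tested genes. It was -0.074 without fresh replicate 2, -0.091 without fresh replicate 3 and -0.14 without cryo replicate 2. The median deviation from the fresh mean, on the log2(CPM + 0.1) scale, was -0.15, -0.27 and -0.047 in cryo replicates 1, 2 and 3, against -0.19, 0.16 and 0.12 in fresh replicates 1, 2 and 3, so fresh replicate 1 was lower than 2 of the 3 cryo libraries.

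**Figure D2:**
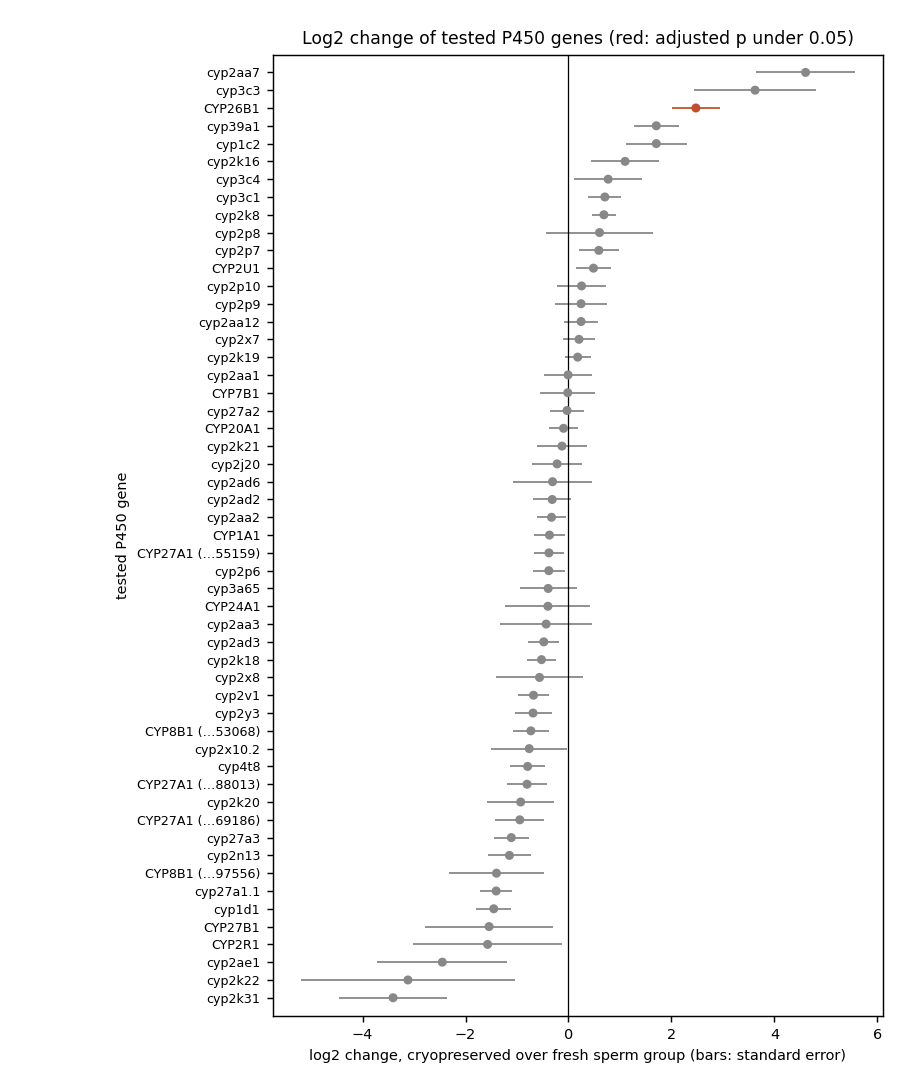
Points give the log2 change of each tested P450 gene, cryopreserved over fresh sperm group, and bars its standard error from the edgeR fit; red marks an adjusted p under 0.05. CYP26B1 is the single red point at 2.47, and cyp2aa7 (4.61) and cyp2k31 (-3.41) stand at the ends.

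Retinoic acid, the active form of vitamin A, is cleared by CYP26 enzymes. CYP26B1 (ENSDARG00000077121) had 5.76, 2.70 and 7.88 CPM in cryo replicates 1, 2 and 3, against 0.764, 1.09 and 1.08 CPM in fresh replicates 1, 2 and 3. Every cryo library was above every fresh one. The log2 change was 2.47 ± 0.47 (SE; edgeR adjusted p = 0.0442), and the counts behind it were 89, 19 and 71 in cryo libraries and 13, 20 and 18 in fresh libraries. The call was lost without cryo replicate 3 (adjusted p = 0.109), without fresh replicates 1, 2 or 3 (0.133, 0.143 and 0.177) and with cryo replicates 2 and 3 both left out (0.0746, with cryo replicate 1 assumed to vary like the fresh libraries), at log2 changes from 2.16 to 2.60. It was also lost by limma-voom (0.0578) and after thinning to the shallowest library (0.0597). The other CYP26 genes had no counts. The 20 exocrine pancreas genes summed to 3997, 1498 and 5083 CPM in cryo libraries and 822, 766 and 465 CPM in fresh libraries. Within the cryopreserved sperm group their sum had the same order over libraries as CYP26B1, and within the fresh sperm group it did not. Pancreatic RNA and sperm group cannot be told apart here, and the part of pancreatic RNA in the CYP26B1 values was not tested. Of the retinoic acid receptor genes, raraa was at 6.66, 16.2 and 9.55 CPM in cryo libraries, against 3.06, 3.27 and 1.496 CPM in fresh libraries, without overlap (log2 change 2.04 ± 0.45, edgeR adjusted p = 0.0671). It passed by DESeq2 (0.00181), without the low-count filter (0.0200) and without cryo replicate 1 (0.0282). It did not pass by limma-voom (0.0755), after thinning (0.0658) or without any other single library (0.114 to 0.217). In the fit that keeps cryo replicate 1 alone the log2 change of raraa was 1.39. The other tested receptor genes were mixed in sign. RARG (ENSDARG00000034117) had 6.15, 3.97 and 2.89 CPM in cryo libraries against 12.3, 5.83 and 7.54 CPM in fresh libraries, with overlap (-0.96 ± 0.41, edgeR adjusted p = 0.261), and rarab had a log2 change of 1.11 ± 0.59 with overlap (0.360).

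Presence in some libraries and absence in others was seen among CYP2K genes. They are a fish CYP2 subfamily of 10 members here, 9 with counts and 8 tested. The gene cyp2k6 (ENSDARG00000098995) had 0, 347 and 216 CPM in cryo replicates 1, 2 and 3 (0, 2447 and 1947 counts) and no count in any fresh library. Its counts thus came from the 2 libraries in which vitellogenin RNA was abundant. Against the 3 counts that a count of 0 allows in a library, cryo replicate 3 was at least 1114-fold above each of the 4 libraries at 0. With counts in 2 libraries the gene did not pass the filter and has no edgeR test there. It was called by DESeq2 (adjusted p = 0.00750) and by edgeR without the filter (0.0103). In the fits without fresh replicate 1, 2 or 3 it was tested and did not pass (0.210, 0.236 and 0.272).

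The gene cyp2k22 (ENSDARG00000040433) had the reverse pattern. It held 216, 0 and 0 CPM in cryo replicates 1, 2 and 3 (3338, 0 and 0 counts), against 377, 769 and 736 CPM in fresh replicates 1, 2 and 3 (6410, 14121 and 12301 counts). Cryo replicate 1 lay below every fresh library, yet at least 507-fold above the limits of cryo replicates 2 and 3. No library had counts of both cyp2k6 and cyp2k22. Over the groups cyp2k22 had a log2 change of -3.12 ± 2.08 and did not pass (edgeR adjusted p = 0.473). Without cryo replicate 1, cyp2k22 and cyp2k6 both passed (adjusted p = 0.00188 each), and with cryo replicates 2 and 3 left out instead, cyp2k22 was at -1.50 ± 0.49 (adjusted p = 0.214).

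At a far lower level, cyp2k31 (ENSDARG00000009874) followed cyp2k22. It had 0.97, 0 and 0 CPM in cryo replicates 1, 2 and 3 (15, 0 and 0 counts), against 1.59, 5.93 and 5.50 CPM in fresh replicates 1, 2 and 3 (27, 109 and 92 counts). The log2 change was -3.41 ± 1.05 (edgeR adjusted p = 0.140), and it passed without cryo replicate 1 (0.0306) and by DESeq2 (0.0144). Related copies may share reads, which makes a value this low uncertain.

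The other 7 CYP2K genes, of which cyp2k17 had no count, were steady in sum but not singly. Their sum was 470, 489 and 427 CPM in cryo replicates 1, 2 and 3, against 453, 432 and 485 CPM in fresh replicates 1, 2 and 3, with means of 462 ± 31.6 CPM in the cryopreserved sperm group and 457 ± 26.6 CPM in the fresh sperm group (SD, n = 3 each). The gene cyp2k19, which held the most counts among them, had 334, 296 and 279 CPM in cryo libraries and 240, 274 and 289 CPM in fresh libraries, with overlapping groups (log2 change 0.18 ± 0.25). The low gene cyp2k16 had 11.3, 17.7 and 4.11 CPM in cryo libraries against 9.70, 2.29 and 3.41 CPM in fresh libraries, with overlap (1.099 ± 0.66, edgeR adjusted p = 0.422). In the RefSeq annotation of the GRCz12tu assembly, another build than that of the counts and used here for neighbourhood alone, cyp2k18, cyp2k20, cyp2k19, cyp2k21, cyp2k17, cyp2k16, cyp2k8 and cyp2k6 follow each other with 0 other protein-coding genes between them. The gene cyp2k6 is the last of those 8, and its neighbour cyp2k8 had 27.3, 31.8 and 36.3 CPM in cryo libraries against 17.7, 18.02 and 23.4 CPM in fresh libraries, without overlap (0.69 ± 0.24, edgeR adjusted p = 0.180). The gene cyp2k22 lies outside the run, and cyp2k31 has no entry that could be matched. The all-or-none difference between libraries was thus seen for cyp2k6 and not for its next neighbour.

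**Figure D3:**
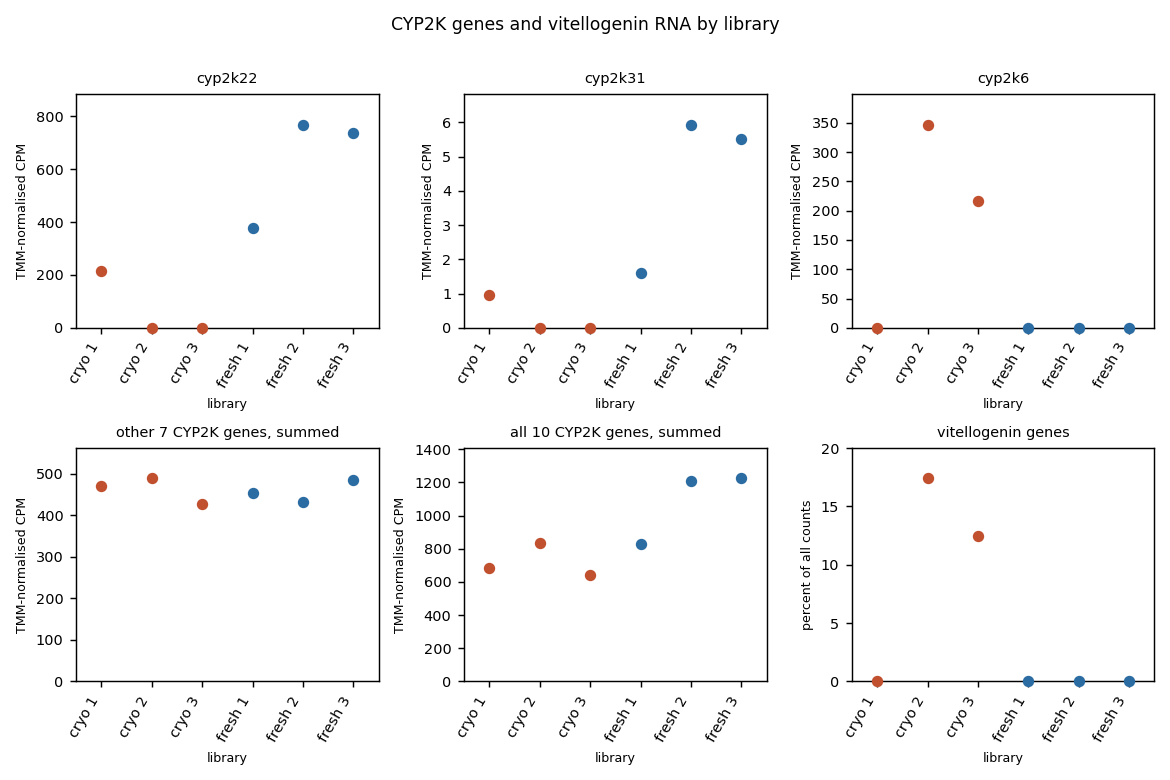
Each point is 1 library (orange: cryo, blue: fresh), with TMM-normalised CPM of cyp2k22, cyp2k31, cyp2k6, the other 7 CYP2K genes summed and all 10 summed, and vitellogenin RNA as percent of counts. The cyp2k6 panel is above 0 in cryo replicates 2 and 3 alone, the libraries where vitellogenin RNA took 17.4% and 12.4% of counts; the cyp2k22 panel is at 0 in those 2 libraries, and the sum of the other 7 stays between 427 and 489 CPM.

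The oestrogen receptor gene ESR1, which drives vitellogenin transcription in fish liver, had 0.647, 108 and 77.0 CPM in cryo replicates 1, 2 and 3, against 0.176, 0.490 and 2.45 CPM in fresh replicates 1, 2 and 3. It was high in the libraries that held cyp2k6. Ovary and egg markers were near 0 in all libraries, with 11 genes summing to between 0.194 and 2.44 CPM in cryo libraries and between 0.176 and 0.544 CPM in fresh libraries. The part of vitellogenin RNA and of ESR1 in the CYP2K values was not tested.

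The rest of family 2 held 30 genes, of which 23 were tested and 0 passed by edgeR, where 1.98% of all genes did. Of the 23, 3 had an unadjusted p under 0.05 (18.5% of all genes), 1 was called by DESeq2 (7.66%) and 0 by limma-voom (2.03%). The largest log2 change of the tested P450 genes was that of cyp2aa7 (ENSDARG00000103766), a fish CYP2AA gene, with 2.65, 12.1 and 42.5 CPM in cryo replicates 1, 2 and 3, against 0.882, 0.544 and 0.897 CPM in fresh replicates 1, 2 and 3. All cryo libraries were above all fresh ones, but cryo replicate 3 was 16 times cryo replicate 1. The log2 change was 4.61 ± 0.96 (edgeR adjusted p = 0.0575), and 1.81 ± 0.56 (0.201) in the fit that keeps cryo replicate 1 alone. It passed by DESeq2 (adjusted p = 1.37e-06), by edgeR without the low-count filter (0.00523) and without cryo replicate 1 (0.00872). It did not pass by limma-voom (0.197), after thinning (0.0662) or without any other single library (0.0875 to 0.203). Among other CYP2AA genes cyp2aa12, the copy with the most counts, had 50.5, 44.4 and 95.7 CPM in cryo libraries against 53.2, 48.5 and 59.22 CPM in fresh libraries, and cyp2aa1 had a log2 change of -0.0084 ± 0.46.

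A second run of 11 genes in the same RefSeq annotation (cyp2n13, cyp2ad6, cyp2ad2, cyp2v1, cyp2ad3, cyp2p6, cyp2p7, cyp2p8, cyp2p9, cyp2p10 and cyp2j20) did not move as a block. Its log2 changes ran from -1.15 ± 0.42 for cyp2n13 to 0.60 ± 1.04 for cyp2p8. The latter had 37, 0 and 64 counts in fresh replicates 1, 2 and 3, which makes its value uncertain. Beside it cyp2p7 was at 0.59 ± 0.39, with overlap. The gene cyp2n13 had 103, 42.8 and 38.4 CPM in cryo replicates 1, 2 and 3, against 122, 167 and 120 CPM in fresh replicates 1, 2 and 3, without overlap (adjusted p = 0.197), and it passed without cryo replicate 1 (0.0182). With the most counts of the run, cyp2ad2 had 263, 231 and 390 CPM in cryo libraries against 260, 537 and 305 CPM in fresh libraries, with overlap (log2 change -0.32 ± 0.37). The zebrafish gene cyp2y3 had 363, 232 and 540 CPM in cryo libraries against 688, 554 and 586 CPM in fresh libraries (log2 change -0.69 ± 0.36, adjusted p = 0.354). Its cryo libraries lay below its fresh ones, with cryo replicate 3 close to fresh replicate 2. The gene cyp2ae1 had 8 counts in all in the cryopreserved sperm group against 82 in the fresh sperm group, and its groups overlapped (log2 change -2.45 ± 1.26, adjusted p = 0.348).

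Family 1 holds the classic targets of the aryl hydrocarbon receptor, which senses planar aromatic compounds. The gene listed as CYP1A1 (ENSDARG00000098315) had 568, 395 and 586 CPM in cryo replicates 1, 2 and 3, against 552, 804 and 646 CPM in fresh replicates 1, 2 and 3. The groups overlapped, and the log2 change of -0.37 ± 0.31 did not pass (edgeR adjusted p = 0.567). A different member, cyp1d1 (ENSDARG00000035569), had 69.2, 36.0 and 32.7 CPM in cryo libraries against 122, 144 and 112 CPM in fresh libraries, with no overlap. Its log2 change of -1.45 ± 0.34 missed the threshold (adjusted p = 0.0752), and it passed without cryo replicate 1 (0.0136), without the low-count filter (0.0386) and by DESeq2 (0.00508). It did not pass by limma-voom (0.0631), after thinning (0.0976) or without any other single library (0.158 to 0.232). In the fit that keeps cryo replicate 1 alone the log2 change of cyp1d1 was -0.83. The low-abundance gene cyp1c2 had 46, 9 and 37 counts in cryo libraries against 17, 7 and 20 counts in fresh libraries, with a log2 change of 1.71 ± 0.59 (0.179).

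Family 3 encodes broad drug-oxidising enzymes. The zebrafish CYP3A gene cyp3a65 (ENSDARG00000103295) had 1301, 270 and 489 CPM in cryo replicates 1, 2 and 3, against 746, 836 and 1126 CPM in fresh replicates 1, 2 and 3. The highest of the 6 values and the lowest were both in the cryopreserved sperm group. The log2 change of -0.39 ± 0.56 did not pass (adjusted p = 0.762), and it was 0.57 in the fit that keeps cryo replicate 1 alone. The 4 CYP3C genes are neighbours in the RefSeq annotation and differed in level over the libraries. The member with the most counts, cyp3c1, had 499, 659 and 552 CPM in cryo libraries against 481, 295 and 272 CPM in fresh libraries (log2 change 0.71 ± 0.32, adjusted p = 0.293), without overlap but with cryo replicate 1 close to fresh replicate 1. Among these neighbours, cyp3c3 had 7.18, 37.0 and 41.9 CPM in cryo libraries against 5.82, 0.0544 and 1.08 CPM in fresh libraries, without overlap. Its log2 change was 3.62 ± 1.19 (edgeR adjusted p = 0.158, and 0.0490 without the low-count filter). It did not pass by DESeq2 (0.124), by limma-voom (0.134), after thinning (0.144) or with any 1 library left out (0.0894 to 0.402). The gene cyp3c2 was at 11, 0 and 96 counts in cryo libraries and 1, 0 and 1 in fresh libraries and did not pass the low-count filter. Without that filter it was called by edgeR (log2 change 6.32, adjusted p = 0.0311), and DESeq2 did not call it. The remaining member, cyp3c4, had a log2 change of 0.77 ± 0.66 with overlap (edgeR adjusted p = 0.583).

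Of 10 tested sterol and bile acid hydroxylase genes 9 had negative log2 changes, against 49.9% of all tested genes and 67.9% of tested P450 genes. Among the 9, CYP7B1 (-0.015) and cyp27a2 (-0.028) were near 0. The set lacks CYP7A1 and the cyp46a1 copies, which were left out at the start. Of its 10 genes 6 are CYP27A rows that may share reads, so they are not all separate observations. By edgeR 0 of the 10 passed, where 1.98% of all genes did. Of the 10, 3 had an unadjusted p under 0.05 (18.5% of all genes), 2 were called by DESeq2 (7.66%) and 0 by limma-voom (2.03%). CYP27A1 enzymes are mitochondrial and hydroxylate the cholesterol side chain, and 6 rows carry that name or a cyp27a copy name. All 6 had negative log2 changes, from -1.41 to -0.028, and among them cyp27a1.1 and cyp27a3 had an unadjusted p under 0.05. The gene cyp27a1.1 (ENSDARG00000033802) had 83.9, 47.1 and 54.6 CPM in cryo replicates 1, 2 and 3, against 134, 189 and 169 CPM in fresh replicates 1, 2 and 3, with no overlap (log2 change -1.41 ± 0.31, edgeR adjusted p = 0.0642). It passed by DESeq2 (0.00213), without the low-count filter (0.0366) and without cryo replicate 1 (0.0192). It did not pass by limma-voom (0.0552), after thinning (0.0746) or without any other single library (0.128 to 0.243). Without cryo replicate 1 every cryo library left holds vitellogenin RNA. In the fit that keeps cryo replicate 1 alone the log2 change of cyp27a1.1 was -0.93. The copy cyp27a3 had 74.4, 31.6 and 49.5 CPM in cryo libraries against 105, 129 and 103 CPM in fresh libraries (-1.11 ± 0.34, adjusted p = 0.140), while cyp27a2 overlapped (-0.028 ± 0.33). Near-identical copies may share reads, which makes the value of each CYP27A copy uncertain. Summed over the 6 rows, the level was 216, 140 and 172 CPM in cryo libraries and 298, 414 and 346 CPM in fresh libraries.

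CYP8B1, the sterol 12-alpha-hydroxylase gene that sets the kind of bile acid made, was listed for 3 rows. Its row with nearly all counts (ENSDARG00000053068) had 129, 59.4 and 83.6 CPM in cryo libraries against 118, 180 and 154 CPM in fresh libraries (log2 change -0.73 ± 0.34, adjusted p = 0.306), with cryo replicate 1 inside the fresh range. The oxysterol 7-alpha-hydroxylase gene CYP7B1 had 5.56, 9.08 and 19.3 CPM in cryo libraries against 12.3, 5.77 and 16.1 CPM in fresh libraries, with a log2 change of -0.015 ± 0.53. In contrast cyp39a1 (ENSDARG00000017982), which encodes a 7-alpha-hydroxylase of 24-hydroxycholesterol, was higher in every cryo library, at 32.0, 28.7 and 26.0 CPM, against 8.05, 4.08 and 14.4 CPM in fresh libraries. Its log2 change of 1.71 ± 0.43 missed the edgeR threshold (adjusted p = 0.0892) and passed by DESeq2 (0.00806) and without the low-count filter (0.0314). It did not pass by limma-voom (0.0635), after thinning (0.0824) or with any 1 library left out (0.0927 to 0.209).

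**Figure D4:**
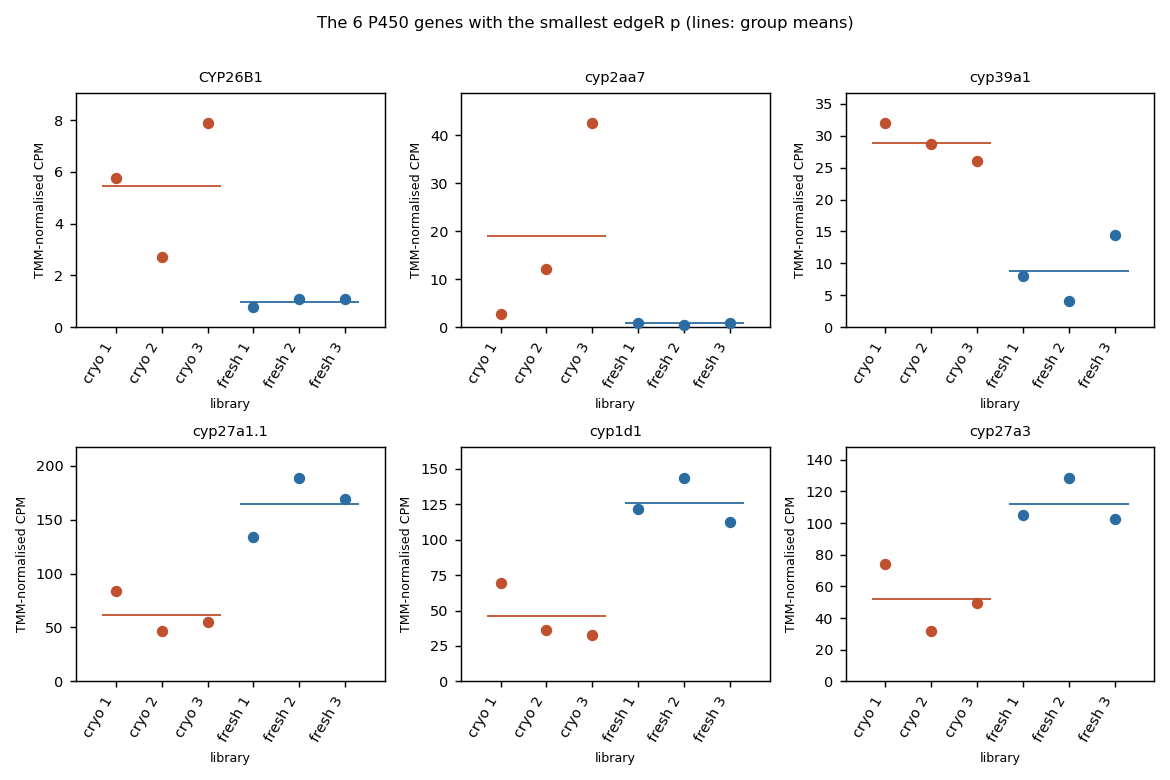
Points give TMM-normalised CPM by library (orange: cryo, blue: fresh) and lines the group means for the 6 P450 genes with the smallest unadjusted edgeR p. In each panel the 3 cryo points lie on 1 side of the 3 fresh points, and CYP26B1 alone passed the adjusted threshold.

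Vitamin D is activated by CYP2R1 (25-hydroxylation, in liver) and CYP27B1 (1-alpha-hydroxylation, mainly in kidney in mammals) and inactivated by CYP24A1. All 3 genes varied mainly within groups. CYP2R1 had 8.54, 1.56 and 20.2 CPM in cryo replicates 1, 2 and 3, against 3.12, 86.1 and 1.14 CPM in fresh replicates 1, 2 and 3. CYP27B1 had 2.78, 1.99 and 6.77 CPM in cryo libraries against 1.999, 31.0 and 0.598 CPM in fresh libraries. Fresh replicate 2 was the highest of the 6 libraries for both activating enzymes, at 75.8 and 51.9 times the lowest fresh library. CYP24A1 had 351, 101 and 531 CPM in cryo libraries against 199, 133 and 966 CPM in fresh libraries, so fresh replicate 2 was the lowest fresh library and fresh replicate 3 the highest of all. In the cryopreserved sperm group, by contrast, cryo replicate 3 was highest and cryo replicate 2 lowest for all 3 genes. None passed, with log2 changes of -1.57 ± 1.45, -1.54 ± 1.24 and -0.40 ± 0.83 for CYP2R1, CYP27B1 and CYP24A1 (edgeR adjusted p = 0.614, 0.554 and 0.845). Without fresh replicate 3 the CYP24A1 change turned to 1.03.

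**Figure D5:**
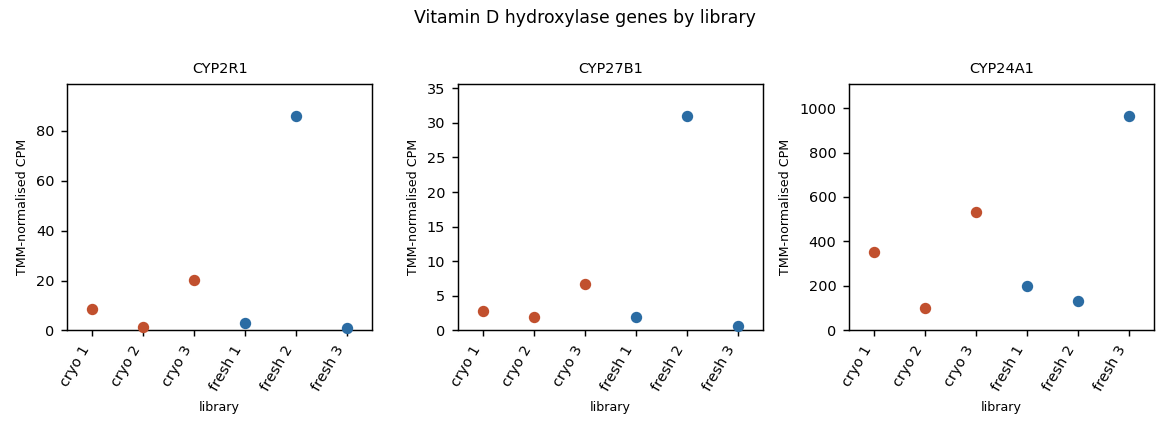
Points give TMM-normalised CPM of the vitamin D hydroxylase genes by library (orange: cryo, blue: fresh). Fresh replicate 2 stands out at 86.1 CPM for CYP2R1 and 31.0 CPM for CYP27B1, and fresh replicate 3 at 966 CPM for CYP24A1.

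Wide spread within a group was counted over all P450 genes. The highest cryo library was at least 5 times the lowest for 6 of 49 P450 genes with counts in all cryo libraries (12.2%), against 10.4% of all tested genes. In the fresh sperm group this held for 9 of 52 (17.3%) against 4.71%. The 9 were cyp3c3, CYP2R1, CYP27B1, cyp2aa3, cyp2ad6, cyp2x10.2, CYP24A1, cyp2x8 and cyp2ae1, of which cyp3c3, cyp2aa3 and cyp2ae1 had 1, 1 and 6 counts in their lowest fresh library. The limit of 5 was chosen after the values were seen, and no test was made. Among partner genes the haem oxygenase gene HMOX1 was likewise high in fresh replicate 2, at 101 CPM against 7.35 and 6.16 CPM in fresh replicates 1 and 3, and at 57.3, 58.9 and 25.5 CPM in cryo libraries.

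Family 4 was represented by cyp4t8 alone among tested genes, with 116, 51.5 and 61.7 CPM in cryo replicates 1, 2 and 3, against 129, 129 and 139 CPM in fresh replicates 1, 2 and 3 (log2 change -0.79 ± 0.34, edgeR adjusted p = 0.264). Cryo replicate 1 was close to the fresh libraries, and without it the gene passed (0.0348). In the fit that keeps cryo replicate 1 alone the log2 change of cyp4t8 was -0.15. The orphan gene CYP20A1 had 18.6, 24.7 and 35.9 CPM in cryo libraries and 29.6, 24.4 and 30.5 CPM in fresh libraries, with overlap (-0.096 ± 0.29). Genes of steroid hormone synthesis were at the floor. The CYP11, CYP17, CYP19 and CYP21 families, which cut the cholesterol side chain and build cortisol, androgens and oestrogens, had 6, 14, 0 and 0 counts over all 6 libraries. Of 8 matched interrenal and gonad markers 5 had no count in any library, and their sums ran from 0.142 to 0.555 CPM in cryo libraries and from 0 to 0.218 CPM in fresh libraries.

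The partners of P450 enzymes were read from lists written for this purpose. Of 12 tested electron donor genes 0 passed by edgeR and 0 by limma-voom, 1 had an unadjusted p under 0.05 (18.5% of all genes) and 1 was called by DESeq2 (7.66%). The list's median log2 change was -0.21. The row of the cytochrome P450 reductase gene POR with nearly all counts (ENSDARG00000059035) had 633, 492 and 558 CPM in cryo replicates 1, 2 and 3, against 1236, 1205 and 1546 CPM in fresh replicates 1, 2 and 3. Every cryo library was below every fresh one, but the log2 change of -1.24 ± 0.29 missed the edgeR threshold (adjusted p = 0.0752). It passed by DESeq2 (0.000374) and without cryo replicate 1 (0.0252). It did not pass by limma-voom, without the low-count filter, after thinning or without any other single library. The mitochondrial donors FDXR and fdx1 had -0.65 ± 0.38 and -0.35 ± 0.33. Of 14 tested genes of haem synthesis and breakdown 0 passed by edgeR and 0 by limma-voom, 2 had an unadjusted p under 0.05 (18.5% of all genes) and 1 was called by DESeq2 (7.66%), with a median of -0.33. ALAS1, the first and rate-limiting step of haem synthesis in liver, was at 142, 82.1 and 56.5 CPM in cryo libraries against 47.2, 28.7 and 32.4 CPM in fresh libraries, without overlap (1.38 ± 0.39, edgeR adjusted p = 0.113, and 0.0233 by DESeq2). It did not pass by limma-voom (0.119), without the low-count filter (0.0650), after thinning (0.122) or with any 1 library left out (0.101 to 0.326).

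Of 36 tested receptors and factors that control P450 genes, 2 rose and 0 fell by edgeR (1.98% of all genes passed), with a median of 0.12. Of the 36, 11 had an unadjusted p under 0.05 (18.5% of all genes), 6 were called by DESeq2 (7.66%) and 2 by limma-voom (2.03%). The aryl hydrocarbon receptor gene ahr1a rose, with 7.76, 2.41 and 6.22 CPM in cryo replicates 1, 2 and 3, against 0.0588, 0.272 and 0 CPM in fresh replicates 1, 2 and 3 (5.49 ± 0.87, edgeR adjusted p = 0.0257). Its counts were 120, 17 and 56 in cryo libraries and 1, 5 and 0 in fresh libraries, so the size of this change is uncertain. The receptor ahr2, by contrast, overlapped, at 73.4, 79.0 and 85.1 CPM in cryo libraries and 50.9, 81.6 and 63.5 CPM in fresh libraries. CEBPA, a liver transcription factor gene, also rose, at 18.3, 27.7 and 23.1 CPM in cryo libraries against 8.47, 8.93 and 6.58 CPM in fresh libraries (1.52 ± 0.27, adjusted p = 0.0379). Both calls were lost without cryo replicate 3 and without fresh replicate 1, 2 or 3 (adjusted p from 0.0658 to 0.0965 for ahr1a and from 0.0820 to 0.171 for CEBPA) and in the fit that keeps cryo replicate 1 alone (0.0618 and 0.146), and CEBPA also missed the threshold without cryo replicate 2 (0.0635). NR1I2, the pregnane X receptor gene and a regulator of CYP3A genes, was at 31.0, 20.005 and 33.1 CPM in cryo libraries against 50.03, 76.0 and 74.3 CPM in fresh libraries (-1.25 ± 0.29, edgeR adjusted p = 0.0751), with no overlap. The gene passed without the low-count filter (0.0486) and by DESeq2 (0.00961). It did not pass by limma-voom, after thinning or with any 1 library left out.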

How the data were processed

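The authors deposited whole-number read counts per Ensembl gene, from HISAT2 alignments per the file headers, for the build GRCz11 (danRer11) per the submitters' processing notes. No source used here names the counter, its strand setting or the annotation. Overlapping and antisense genes, and near-identical copies, therefore cannot be told apart. Symbols came from a name table that matched 29201 of 32520 identifiers, and many are in capitals and shared by several genes.

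Counts were fitted with edgeR 4.0.16 (R 4.3.3): filterByExpr, TMM, a quasi-likelihood test of cryopreserved over fresh, two-sided, with Benjamini-Hochberg adjustment over all 12674 tested genes. SE is the size of the log2 change over the square root of F. On simulated data the procedure called 4% of genes given a log2 change of 1, 52% at 2, 92% at 3 and 100% at 5. Each size had 50 genes, all with a mean of at least 5 CPM, and 10 of 134 calls were false. These shares do not cover genes of lower level. A gene that did not pass may therefore still differ, above all at a log2 change near 1. Depth was 8277183 to 17606733 counts per library, and limits for a count of 0 use 3 counts and cover counting error only. All pairs of libraries in a group differed by more than sampling noise (lowest chi-square per degree of freedom 53.2).

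The P450 genes and lists were chosen with earlier results of these data known. The genes described include all P450 genes past the threshold, the 8 largest changes, the 8 with the most counts, the first of each family and non-overlapping genes with an unadjusted p under 0.01. Other P450 and partner genes were chosen after their values were seen, and some genes the rule takes are given by counts alone. List symbols were matched in any case, then with the copy suffix dropped. Alternatives used DESeq2 1.42.0 and limma 3.58.1, and figures matplotlib 3.10.9. RefSeq neighbours were read for 67 of the 79 genes (84.8%). No sequence was used here.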

Additional observations from a re-analysis of the deposited data

How the results depend on the processing

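Of 53 tested P450 genes 37 had a log2 change under 1 in size, beside a median standard error of 0.46, and cryo replicate 2, with 8277183 counts, sets the widest limit for a count of 0 (0.426 CPM).

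The count of P450 genes past the threshold was 1 (1 higher, 0 lower). It stayed 1 with RLE or upper-quartile factors, a filter of at least 1 CPM in 3 libraries and vitellogenin genes left out. Of the 7 vitellogenin genes 1 was tested in the main fit, and the low-count filter had already removed the rest. Leaving them out therefore says little about the weight of vitellogenin RNA. It was 0 by limma-voom, after thinning to the shallowest library and at an adjusted p under 0.01, where 257, 224 and 34 of all genes passed. It was 8 without the filter (6 higher and 2 lower, 11.4% of 70 tested, against 3.23% of all genes). By DESeq2 it was 7 (4 higher and 3 lower, 11.5% of 61, against 7.66%). At an adjusted p under 0.10 it was 5 of 53 (3 higher and 2 lower), against 721 of all 12674 tested genes. With 1 library left out it ran from 0 to 11 (higher 0 to 3, lower 0 to 8), the 11 without cryo replicate 1, where 19.6% of 56 tested P450 genes passed against 6.6% of all genes. That fit sets libraries that all hold vitellogenin RNA against fresh ones.

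Over all genes 251 passed. The count was 705 without the filter, 1162 by DESeq2, 109 with cryo replicates 2 and 3 left out, 34 at an adjusted p under 0.01 and 721 under 0.10, and it ran from 32 to 873 with 1 library left out. The median log2 change of P450 genes, -0.37, was negative throughout, from -0.43 to -0.074 with 1 library left out.

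With the replicate number as a block, 33 genes and 0 P450 genes passed (0 higher, 0 lower) and the P450 median was -0.15. Same-numbered libraries correlated in their deviations at -0.065, -0.13 and 0.058, and 1 of 6 libraries was closest to its own number. The numbers therefore do not pair the libraries. Nothing is drawn from that fit beyond its part in the tally of named genes below, where 24 of its values were the same and 3 lost the call.

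Of 430 values of named genes under alternatives, 371 kept direction and side of the threshold, 20 newly passed, 21 lost the call and 18 turned direction. Of the named genes only CYP26B1, ahr1a and CEBPA passed in the main fit, so the 21 lost calls are all theirs. Most of the 371 are genes that did not pass in either fit, so that number says little about how stable the calls were. None of those that turned had passed. CYP7B1 turned to 0.018 with RLE factors, 0.083 with upper-quartile factors, 0.0040 with the 1 CPM filter and 0.018 with vitellogenin genes left out. The minor POR row was 0.0077 with upper-quartile factors, and cyp3a65 was 0.57 with cryo replicates 2 and 3 left out. With 1 library left out, log2 changes ran from -0.63 to 0.36 for CYP7B1, -0.36 to 0.12 for CYP20A1, -0.89 to 1.03 for CYP24A1, -0.55 to 0.11 for cyp2ad2, -1.23 to 0.039 for cyp3a65 and -0.18 to 0.050 for the minor POR row. The cause of these shifts was not tested.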
